A study of Homo sapiens with 12 samples.

Results

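A set of 7 genes of cholesterol sensing and uptake was followed through 12 RNA sequencing libraries: SREBF1, SREBF2, SCAP, INSIG1, INSIG2, MYLIP and STARD4. They were chosen by symbol, for their roles in control of the sterol regulatory element binding proteins (SREBPs) and in uptake of low density lipoprotein (LDL). Earlier results of these data were known when they were chosen. Counts of members set beside all genes are therefore descriptions and not independent support. All 7 were found among the 58735 genes of the deposited table, and all 7 passed the filter on low values (1 FPKM or more as the average of the 12 libraries) that left 13038 genes for testing. FPKM is a read count divided by gene length and by a library factor. The cells were MSTO-211H, an established human mesothelioma line, kept floating in RPMI medium with the supplement SM1, EGF, bFGF and heparin; the submitters call them mesothelioma-initiating. The treatments were vehicle or a compound named only as QTP (10 µM), then a sham exposure or 4 Gy of radiation a day later, and RNA was taken after another 48 h. There were 3 libraries in each of 4 groups: Con (vehicle and sham), IR (vehicle and 4 Gy), Rx (read here as QTP and sham) and Combo (read here as QTP and 4 Gy). The titles do not spell out Rx and Combo, and these readings follow from the 4 arms of the design. All groups are 1 cell line, and the labels do not tell whether replicates were grown apart, so a p-value here reflects only how far these libraries vary, which may be technical.

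SREBPs are transcription factors made as precursors in the membrane of the endoplasmic reticulum. SREBF2 encodes the form best known for cholesterol synthesis and LDL uptake, and SREBF1 forms best known for fatty acid synthesis. The sterol sensor SCAP carries the precursors to the Golgi, where proteases release the active factor, and INSIG1 and INSIG2 hold SCAP back when sterols are plentiful. INSIG1 is itself a classical SREBP target, so its RNA is widely read as a gauge of the pathway. MYLIP, induced by the sterol receptors of the LXR family, encodes a ubiquitin ligase that sends the LDL receptor to degradation, and STARD4 encodes a soluble carrier that moves cholesterol between membranes. The switch itself is a cut in a protein, which RNA sequencing does not read.

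The bases before the start of 4 of these genes are printed because they are the members with an unadjusted p under 0.05 when the QTP differences of both radiation arms were averaged. Sequences are from RefSeq (build GRCh38.p14), the 250 bases before each RefSeq start, read 5′ to 3′ along the gene. These starts differ from the gene bounds of the deposited table: by those bounds the SCAP window lies wholly inside the gene, and the windows of all other members but MYLIP reach into it. Capitals mark TCACCCCAC (a sterol regulatory element of the LDL receptor type), CACGTG (the symmetric E-box) and CCAAT (or ATTGG, the same box on the other strand). The windows are STARD4 chr5:111512536-111512785 on the minus strand, INSIG1 chr7:155297628-155297877 on the plus strand, SREBF2 chr22:41832855-41833104 on the plus strand and SREBF1 chr17:17836987-17837236 on the minus strand.
STARD4: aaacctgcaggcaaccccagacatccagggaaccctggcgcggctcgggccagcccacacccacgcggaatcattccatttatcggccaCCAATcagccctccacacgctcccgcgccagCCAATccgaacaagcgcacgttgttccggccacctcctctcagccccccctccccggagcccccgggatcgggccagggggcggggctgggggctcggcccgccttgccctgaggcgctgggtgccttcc
INSIG1: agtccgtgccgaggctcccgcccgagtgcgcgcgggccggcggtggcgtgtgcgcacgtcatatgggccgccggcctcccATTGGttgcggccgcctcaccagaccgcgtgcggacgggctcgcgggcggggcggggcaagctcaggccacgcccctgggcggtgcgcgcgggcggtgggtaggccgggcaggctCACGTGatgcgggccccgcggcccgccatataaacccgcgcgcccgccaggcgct
SREBF2: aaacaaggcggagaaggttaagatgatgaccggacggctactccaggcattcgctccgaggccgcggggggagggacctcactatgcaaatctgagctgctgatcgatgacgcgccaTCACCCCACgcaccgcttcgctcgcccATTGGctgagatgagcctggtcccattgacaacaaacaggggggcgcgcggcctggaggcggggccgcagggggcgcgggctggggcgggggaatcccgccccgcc
SREBF1: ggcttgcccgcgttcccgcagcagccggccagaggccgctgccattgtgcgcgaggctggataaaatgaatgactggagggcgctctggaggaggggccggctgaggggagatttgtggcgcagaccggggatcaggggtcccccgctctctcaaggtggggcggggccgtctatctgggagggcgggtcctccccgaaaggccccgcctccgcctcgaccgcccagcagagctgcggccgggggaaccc

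The letters TCACCCCAC stood in the SREBF2 window, 133 to 125 bases before the start, and in 0.362% of all 35116 promoter windows of this length on either strand. TCACNCCAC, which contains the first motif, added no other member and was in 0.883% of windows. CACGTG stood 55 to 50 bases before the RefSeq start of INSIG1 and 58 to 53 before that of SCAP, and 6.34% of all windows held it. CCAAT was in the windows of 4 members (STARD4, INSIG1, SREBF2 and MYLIP) against 32.0% of all windows, and STARD4 and MYLIP each had 2 copies. The GC box GGGCGG was in the windows of all 7 and in 42.6% of all windows. The GC content of the members' windows was 65.6 to 78.4%, and the median over all windows was 58.0%. These matches describe letters in a window and show neither binding nor its absence.

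Whole reads recovered from the FPKM summed to 13188257 to 16269195 per library in Con and IR and to 14925895 to 18630958 in Rx and Combo, so QTP libraries were on the whole deeper. FPKM divides by a library factor, and the part of depth in the results was not tested. Library IR 3 had the fewest genes above 0 (23102) and the highest mitochondrial share of reads (10.5%), and Combo 3 had the most genes (26527). Values without both are given beside the STARD4 call, Combo against IR and the interaction. In bulk RNA, fewer cells of a kind and less RNA per cell cannot be told apart.

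The members covered a wide range of levels. Over all 12 libraries INSIG1 averaged 50.6 FPKM, SREBF2 42.7, SREBF1 25.8, SCAP 14.9, STARD4 12.7, INSIG2 12.4 and MYLIP 1.60. Among the 13038 tested genes these means stood at percentiles from 94.9 for INSIG1 and 93.7 for SREBF2 to 12.2 for MYLIP. FPKM is per length, so the genes can be ranked within a library: MYLIP was lowest of the 7 in 12 of 12, SREBF1 in place 3 in 11, and the first place went to INSIG1 in 7 and to SREBF2 in 5. SCAP, STARD4 and INSIG2 exchanged places 4 to 6, and their ranges overlapped over the 12 libraries. MYLIP rested on 52 to 109 reads per library, INSIG2 on 439 to 1164, STARD4 on 640 to 2007 and INSIG1 on 1027 to 8146.

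**Figure D1:**
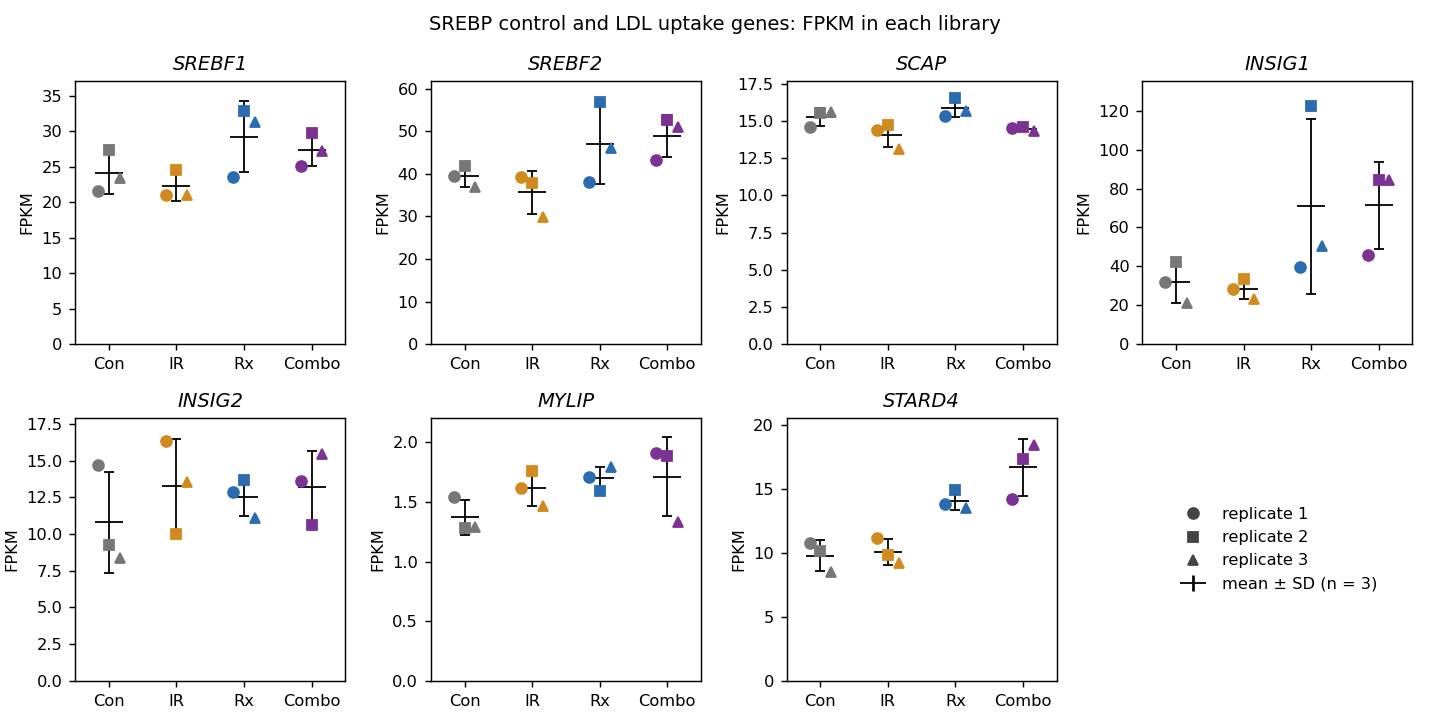
FPKM (vertical axes, linear and starting at 0) of each member in each library by group, with symbols for the replicate number and bars for the mean ± SD (n = 3). STARD4 lies at 8.49 to 11.2 FPKM in the vehicle groups and at 13.5 to 18.5 in the QTP groups; INSIG1 is highest and most spread in Rx, where replicate 2 reaches 122.5.

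Whether QTP changed these genes was asked in each radiation arm and as the average of both arms. With QTP averaged, STARD4 rose, and it was the only one of the 7 members past an adjusted p of 0.05, where limma called 12 of all 13038 genes (0.0920%). The call held in 3 of 12 fits that each left out 1 library. At an unadjusted p under 0.05 there were 4 of 7 members, all higher (STARD4, INSIG1, SREBF2 and SREBF1), against 11.4% of all genes. The median difference over the 7 members was 0.27 on the log2(FPKM + 1) scale, and over all tested genes it was -0.00. All 7 differences were above 0 and stayed so under every alternative in which the gene was tested.

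SREBF2 (chromosome 22, 41833079 to 41907308, hg38, plus strand) was at 39.4, 41.9 and 36.9 FPKM in Con 1 to 3, and at 39.1, 37.8 and 29.9 in IR. With QTP it was at 38.0, 56.9 and 46.1 FPKM in Rx and at 43.2, 52.6 and 50.9 in Combo. Every Combo library was above every Con and IR library, whereas Rx 1 lay among the vehicle libraries. The QTP averaged difference was 0.34 (SE 0.10) on the log2 scale, with an unadjusted p of 0.00609 and an adjusted p of 0.283. In sham cells the difference was 0.23 (SE 0.14), and it was 0.09 without Rx 2 and 0.37 without Rx 1. SREBF2-AS1, an antisense gene sharing 1587 bases with it, had 41 to 71 reads, and its QTP averaged difference was -0.04 (SE 0.09); the use of strand in counting is not given in the sources used here.

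SREBF1 (chromosome 17, 17810399 to 17837002, minus strand) was at 21.6, 27.4 and 23.5 FPKM in Con 1 to 3, and at 21.0, 24.6 and 21.1 in IR. It was at 23.5, 32.9 and 31.3 FPKM in Rx and at 25.2, 29.7 and 27.2 in Combo. Combo lay above IR in every library, and the Con and QTP libraries overlapped. The QTP averaged difference was 0.27 (SE 0.09) with an unadjusted p of 0.0118 and an adjusted p of 0.330, so it did not pass. Rx against Con gave 0.26 (SE 0.13), which was 0.17 without Rx 2 and 0.40 without Rx 1. RAI1 on the opposite strand shares 1055 bases with SREBF1 and had 672 to 1685 reads, with a QTP averaged difference of 0.09 (SE 0.12).

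SCAP (chromosome 3, 47413694 to 47477126, minus strand) had the smallest relative spread of the 7, a coefficient of variation of 5.93% over the 12 libraries. It was at 14.57, 15.6 and 15.6 FPKM in Con 1 to 3, at 14.4, 14.7 and 13.1 in IR 1 to 3, at 15.4, 16.5 and 15.7 in Rx and at 14.5, 14.56 and 14.3 in Combo. The QTP averaged difference was 0.05 (SE 0.04, 95% interval -0.05 to 0.14; adjusted p of 0.722). SCAP is the partner of both SREBPs, and the ratio of SREBF2 to SCAP in FPKM averaged 2.59 ± 0.194 (Con), 2.52 ± 0.223 (IR), 2.95 ± 0.486 (Rx) and 3.38 ± 0.354 (Combo) (SD, n = 3). The ratio of SREBF2 to SREBF1 was 1.64 ± 0.159, 1.60 ± 0.228, 1.61 ± 0.128 and 1.78 ± 0.0768 in the same order, and the groups overlapped.

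INSIG1 (chromosome 7, 155297776 to 155310235, plus strand) had the largest QTP differences of the 7 members and the largest relative spread over the 12 libraries. It was at 31.9, 42.3 and 21.2 FPKM in Con 1 to 3, and at 28.4, 33.6 and 23.3 in IR. It was at 39.8, 122.5 and 50.7 FPKM in Rx and at 45.7, 84.2 and 84.3 in Combo. In 5 of 6 QTP libraries INSIG1 was above all 6 vehicle libraries, and Rx 1 lay below Con 2. The QTP averaged difference was 1.14 (SE 0.28), a fold of 2.20 on the log2(FPKM + 1) scale, with an unadjusted p of 0.00167 and an adjusted p of 0.180, which did not pass. In sham cells the difference was 1.01 (SE 0.39), and without Rx 2 it was 0.54.

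INSIG2 (chromosome 2, 118088452 to 118110997, plus strand), the other retention protein gene, did not pass the test in any comparison. It was at 14.7, 9.28 and 8.38 FPKM in Con 1 to 3, at 16.3, 9.97 and 13.5 for IR, at 12.8, 13.7 and 11.1 for Rx and at 13.6, 10.6 and 15.4 for Combo. Its 4 groups overlapped, and the QTP averaged difference was 0.12 (SE 0.15, 95% interval -0.21 to 0.45; adjusted p of 0.806). That difference was 0.030 without IR 2 and 0.23 without Con 1, the lowest and highest with 1 library left out. The ratio of INSIG1 to INSIG2 in FPKM was 3.09 ± 1.29 (Con), 2.28 ± 0.943 (IR), 5.54 ± 3.05 (Rx) and 5.59 ± 2.29 (Combo) (SD, n = 3). The ratio was 1.72 to 4.56 over the vehicle libraries and 3.09 to 8.95 over the QTP libraries, so it overlapped between them.

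MYLIP (chromosome 6, 16129125 to 16148248, plus strand) was low everywhere. It was at 1.54, 1.28 and 1.29 FPKM in Con 1 to 3, at 1.62, 1.75 and 1.46 for IR, at 1.71, 1.59 and 1.79 for Rx and at 1.91, 1.89 and 1.33 for Combo. All 3 Rx libraries were above all 3 Con libraries, whereas Combo 3 fell within the range of Con. The QTP averaged difference was 0.12 (SE 0.08, 95% interval -0.05 to 0.28; adjusted p of 0.595), on a scale that understates the change of a gene this low.

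STARD4 (chromosome 5, 111496033 to 111512590, minus strand) was at 10.8, 10.1 and 8.49 FPKM in Con 1 to 3, and at 11.2, 9.87 and 9.20 in IR. It was at 13.8, 14.9 and 13.5 FPKM in Rx and at 14.2, 17.4 and 18.5 in Combo. All 6 QTP libraries were above all 6 vehicle libraries, as for 0.621% of tested genes in that direction, and no other member was separated so. The group means in FPKM were 9.81 ± 1.19 (Con), 10.1 ± 0.992 (IR), 14.1 ± 0.730 (Rx) and 16.7 ± 2.20 (Combo) (SD, n = 3). The QTP averaged difference was 0.58 (SE 0.08; 95% interval 0.41 to 0.75), a fold of 1.49 on the log2(FPKM + 1) scale, with an adjusted p of 0.0493. By unadjusted p (1.10e-05) it ranked 2 of the 13038 tested genes. An antisense gene, STARD4-AS1, shares 365 bases with STARD4 and had 18 to 81 reads. This antisense gene averaged 0.523 FPKM, below the filter, so its QTP difference was not tested.

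**Figure D2:**
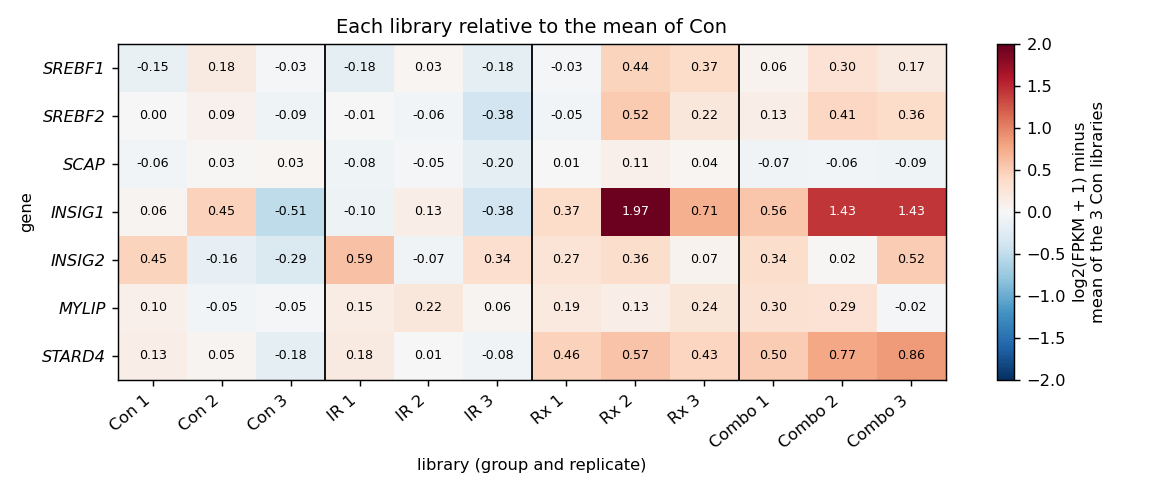
Value of each member (rows) in each library (columns) as log2(FPKM + 1) minus the mean of the 3 Con libraries; red is higher and blue lower, and the number in each cell is the value. The largest cell is INSIG1 in Rx 2 at 1.97, STARD4 runs from 0.43 to 0.86 over the 6 QTP libraries, and SCAP stays between -0.20 and 0.11.

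The call of STARD4 was close to its threshold. All 12 called genes shared the same adjusted p, since the adjustment gave them a common value. With each library left out in turn, the STARD4 difference was 0.53 to 0.63 and its adjusted p was 0.0268 to 0.156. The call held in 3 of these 12 fits (without IR 1, Rx 1 or Combo 1) and was lost without Con 1, Con 2, Con 3, IR 2, IR 3, Rx 2, Rx 3, Combo 2 or Combo 3. Without both IR 3 and Combo 3 the difference was 0.51 with an adjusted p of 0.259. Over the 10 alternatives that were not single libraries left out, with that fit among them, the difference was 0.51 to 0.63, and 5 kept the call.

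**Figure D3:**
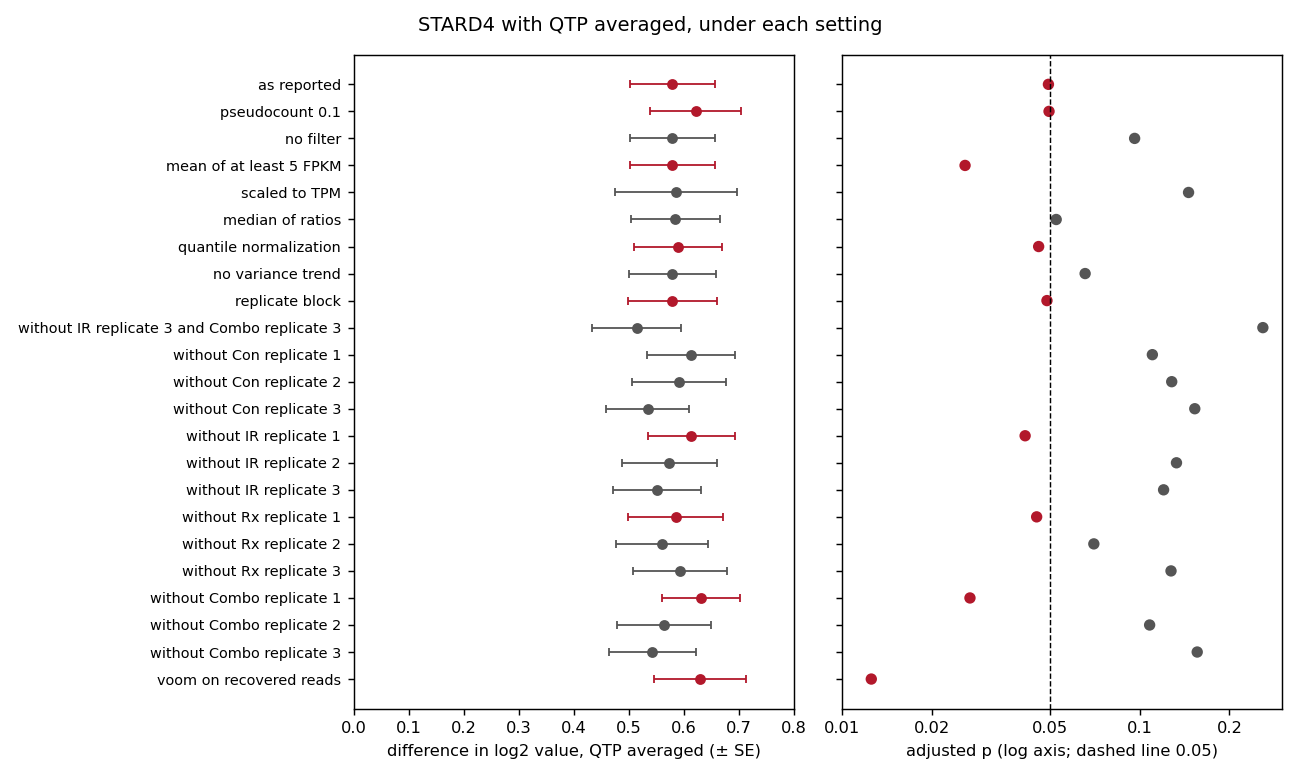
QTP averaged difference of STARD4 in log2 units with its SE (left) and adjusted p on a log axis (right) under each setting; red points are past the dashed line at 0.05. The difference stays between 0.51 and 0.63 in every setting shown, while the adjusted p runs from 0.0125 to 0.259 across the line.

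In the comparisons between pairs of groups no member passed an adjusted p of 0.05, and neither did any of the 13038 genes (0%). In Rx against Con, unadjusted p was under 0.05 for 2 members (INSIG1 and STARD4) against 3.26% of all genes. There 2 members (MYLIP and STARD4) had higher groups that did not overlap, against 4.60% of all genes. The STARD4 difference was 0.49 (SE 0.11) with an unadjusted p of 9.28e-04 and an adjusted p of 0.926. In Combo against IR, 4 members had an unadjusted p under 0.05 (SREBF1, SREBF2, INSIG1 and STARD4) against 17.5% of all genes. The same 4 had higher groups that did not overlap, against 8.53%. STARD4 differed by 0.67 (SE 0.11; adjusted p of 0.145), INSIG1 by 1.26 (SE 0.39; adjusted p of 0.180) and SREBF2 by 0.45 (SE 0.14; adjusted p of 0.181). Without IR 3 and Combo 3 these were 0.54, 0.98 and 0.30, each with an adjusted p of 0.999. The adjusted p of STARD4 was 0.0243 without IR 1, in a fit that called 956 genes in place of 0.

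Combo against Con, which shares its libraries with the comparisons above, had 2 members at an unadjusted p under 0.05 (INSIG1 and STARD4) against 13.2% of all genes. In this comparison 3 members had higher groups that did not overlap (SREBF2, INSIG1 and STARD4) against 10.0% of all genes. STARD4 differed by 0.71 (SE 0.11; adjusted p of 0.122) and INSIG1 by 1.14 (SE 0.39; adjusted p of 0.272). With the replicate number as a block, STARD4 passed here (adjusted p of 0.0428), in a fit that called 90 genes in place of 0. SCAP alone had a lower group that did not overlap, against 12.8% of all genes, by the margin between 14.56 FPKM in Combo 2 and 14.57 in Con 1. Its difference was -0.07 (SE 0.06; adjusted p of 0.637).

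**Figure D4:**
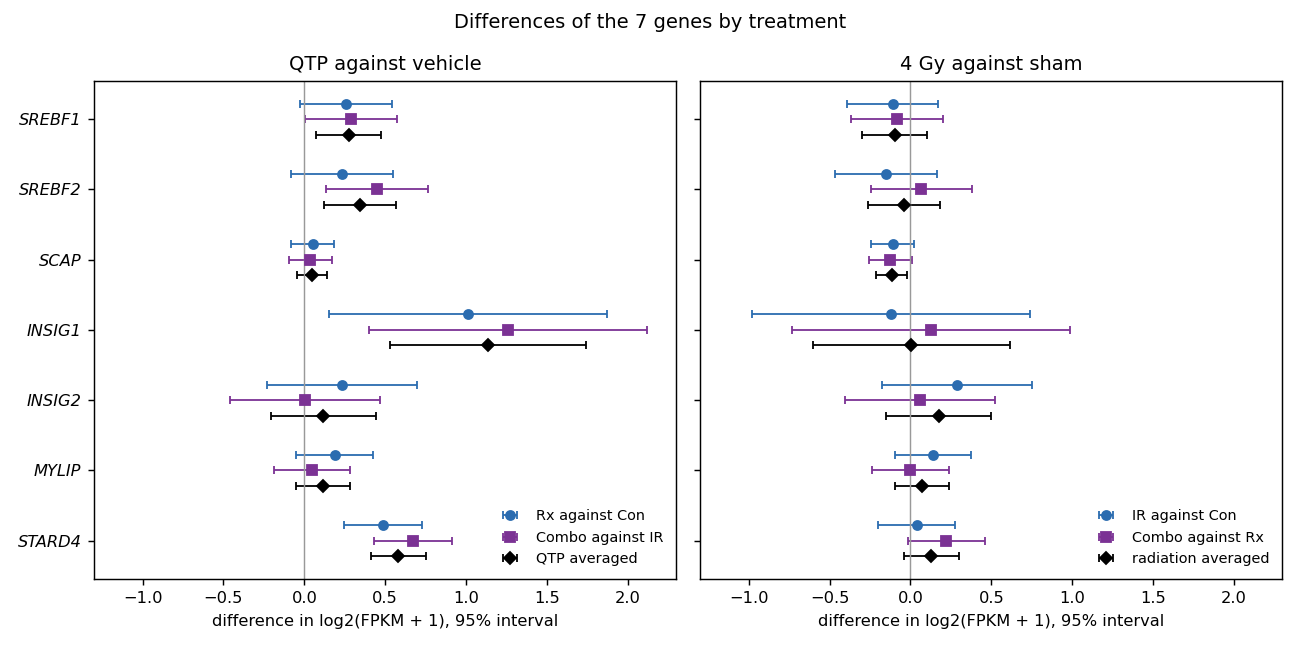
Difference of each member on the log2(FPKM + 1) scale with its 95% interval, for QTP against vehicle (left: in sham cells, in irradiated cells and averaged) and for 4 Gy against sham (right: in vehicle cells, in QTP cells and averaged). For QTP the averaged intervals of STARD4, INSIG1, SREBF2 and SREBF1 lie above 0; for radiation only the averaged interval of SCAP leaves 0 out, at -0.12.

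What radiation did to these genes was asked the same way, and no member passed. With radiation averaged over both QTP arms, 0 of 13038 genes passed (0%), and 1 member had an unadjusted p under 0.05 (SCAP) against 8.51% of all genes. The SCAP difference was -0.12 (SE 0.04; unadjusted p of 0.0188, adjusted p of 0.484). In QTP cells (Combo against Rx) SCAP had a lower group that did not overlap, as did 12.7% of all genes, and its difference was -0.12 (SE 0.06; adjusted p of 0.559). No member reached an unadjusted p of 0.05 in IR against Con, against 6.86% of all genes, or in Combo against Rx, against 9.11%. The radiation averaged difference of STARD4 was 0.13 (SE 0.08; 95% interval -0.04 to 0.30), that of SREBF2 -0.04 (SE 0.10) and that of INSIG1 0.01 (SE 0.28; 95% interval -0.60 to 0.61). INSIG2 was at 0.17 (SE 0.15) and MYLIP at 0.07 (SE 0.08). The interval of INSIG1 holds changes of either sign, and none was detectable with this spread between libraries.

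Whether the QTP difference depended on radiation was tested as an interaction, Combo against IR minus Rx against Con. No member had an unadjusted p under 0.05, against 7.63% of all genes, and 0 genes passed after adjustment. STARD4 gave 0.18 (SE 0.15; 95% interval -0.16 to 0.52; adjusted p of 0.695), SREBF2 0.22 (SE 0.20; 95% interval -0.23 to 0.66; adjusted p of 0.725) and INSIG1 0.25 (SE 0.55; 95% interval -0.97 to 1.46; adjusted p of 0.900). Leaving out 1 library gave 0.11 (without Combo 3) to 0.29 (without Combo 1) for STARD4, 0.077 (without Rx 1) to 0.36 (without Rx 2) for SREBF2 and -0.077 to 0.72 (without the same libraries) for INSIG1. Without IR 3 and Combo 3 they were 0.054, 0.070 and -0.029. These intervals do not show that the arms respond alike. Rescaling to TPM moved the median interaction of all genes by 0.16, the one shift above 0.1 that any scaling gave.

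Across libraries, part of the family moved together. The Pearson correlation of log2(FPKM + 1) over the 12 libraries, which share treatment and library effects, was 0.936 for SREBF2 with INSIG1, 0.863 for INSIG1 with STARD4 and 0.851 for SREBF1 with SREBF2. After each group's mean was removed these were 0.887, 0.676 and 0.745, so for these pairs replicates of a group also varied together. Rx 2 was the highest of the 12 libraries for SREBF1, SREBF2 and INSIG1. No correlation given here or in the next paragraph was computed without it. SREBF1 with STARD4 was at 0.608 over libraries and at 0.177 within groups. INSIG2 was at 0.196 with INSIG1 and -0.252 with SREBF1, and MYLIP was at 0.396 or below with each other member.

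The genes whose pattern over the 12 libraries was most like each member, by the same correlation over all tested protein-coding genes, were of different kinds. For SREBF2 they included FASN, the fatty acid synthase gene (0.991 over libraries, 0.984 within groups), and LPCAT3, a phospholipid remodelling enzyme (0.966). For INSIG1 they included FADS2, a fatty acid desaturase (0.991 and 0.980 within groups), and HMGCS1, which makes HMG-CoA (0.983). For STARD4 they were C12orf49, which encodes a factor needed for SREBP processing (0.943), AOC2 (0.935) and ACSL4, an acyl-CoA synthetase (0.935), but within groups C12orf49 was at 0.592 and ACSL4 at 0.550. SREBF1 was closest to CPNE7 (0.924), RHPN1 (0.922) and CFAP410 (0.905), and SCAP to ARFRP1 (0.940), PIP5K1C (0.935) and TRAF7 (0.934). INSIG2 was closest to PFKFB4, a glycolytic regulator (0.953), SFXN3 (0.942) and ANGPTL4 (0.935). For MYLIP the closest were UTP25 (0.826), SEC24B (0.788) and APOL1 (0.764).

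The neighbours of these genes in the pathway were described from lists, also chosen with earlier results of these data known. With QTP averaged, 679 of all 13038 tested genes were higher and 804 lower at an unadjusted p under 0.05, and 11 rose past the adjusted threshold. Of 21 cholesterol synthesis enzymes, all tested, 19 had an unadjusted p under 0.05 and were higher with QTP averaged, 1 was lower at that p, and 2 rose past the adjusted threshold. The median was 0.57. The 2 were DHCR7, the last reductase of the pathway, which went from 34.4 ± 5.92 FPKM in Con and 27.4 ± 3.92 in IR to 59.6 ± 17.4 in Rx and 60.2 ± 11.2 in Combo (SD, n = 3), and SC5D, a sterol desaturase. DHCR7 differed by 0.93 (SE 0.14) and SC5D by 0.42 (SE 0.07). Of 15 fatty acid genes 14 were tested, 10 were higher and 1 lower at an unadjusted p under 0.05, and 2 rose past the adjusted threshold: FADS1, a desaturase, at 0.56 (SE 0.08) and LPIN1, a phosphatidate phosphatase, at 0.68 (SE 0.10). The median of that list was 0.54. In the limma fit DHCR7, SC5D, FADS1 and LPIN1 each had an adjusted p of 0.0493, as STARD4 had. Scaled to TPM or by the median of ratios, or with no variance trend, 0 of all genes were called. The count was also 0 when Con 1, Con 2, Con 3, IR 2, IR 3, Rx 3 or Combo 3 was left out on its own.

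Genes that process and degrade the pathway's proteins were counted in the same way, beside 11.4% of all tested genes at an unadjusted p under 0.05 in either direction. The 14 tested genes of the SREBP activation list included the Golgi proteases MBTPS1 and MBTPS2 and the COPII coat that carries SCAP. The list also held FBXW7, which acts in SREBP degradation. Of the 14, 1 was higher at an unadjusted p under 0.05 and 0 were called (median -0.00). That gene was C12orf49, with means in FPKM of 5.65 ± 0.213 (Con), 5.74 ± 0.327 (IR), 6.41 ± 0.0407 (Rx) and 6.77 ± 0.244 (Combo) (SD, n = 3), a difference of 0.18 (SE 0.04; adjusted p of 0.153). SEC23A and SEC24B, coat subunits, were at -0.08 (SE 0.04) and 0.09 (SE 0.05). Of 12 genes of sterol-regulated degradation in the endoplasmic reticulum, 1 was higher and 1 lower at that p and 0 were called (median 0.02). The lower one was RNF145, a ubiquitin ligase, at -0.20 (SE 0.06; adjusted p of 0.272), and the higher one SYVN1, another ligase, at 0.13 (SE 0.06); ERLIN2 was at -0.10 (SE 0.05).

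Of 19 genes of the LDL receptor family and its traffic, 17 were tested and 0 were called (median 0.02). At an unadjusted p under 0.05, 3 were higher and 1 lower, against 11.4% of all tested genes in either direction. LRP8, a lipoprotein receptor, had means in FPKM of 4.20 ± 0.261 (Con), 3.51 ± 0.228 (IR), 5.15 ± 0.715 (Rx) and 5.43 ± 0.526 (Combo) (SD, n = 3), a difference of 0.37 (SE 0.07; adjusted p of 0.0788). SCARB1, the scavenger receptor for high density lipoprotein, was at 0.28 (SE 0.08; adjusted p of 0.283). Of 12 intracellular sterol carriers other than STARD4, 8 were tested, 2 were higher and 1 lower at that p, and 0 were called (median 0.05). NPC1, which exports cholesterol from lysosomes, was at 0.57 (SE 0.15; adjusted p of 0.216), its lysosomal partner NPC2 at 0.18 (SE 0.07) and SCP2, a carrier of peroxisomes and cytosol, at -0.17 (SE 0.05). Of 9 genes of LXR and its targets, a list that holds SREBF1 and MYLIP, 8 were tested, 2 were higher at that p (SREBF1 and LPCAT3) and 0 were called (median 0.13). LPCAT3 was at 0.17 (SE 0.08).

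**Figure D5:**
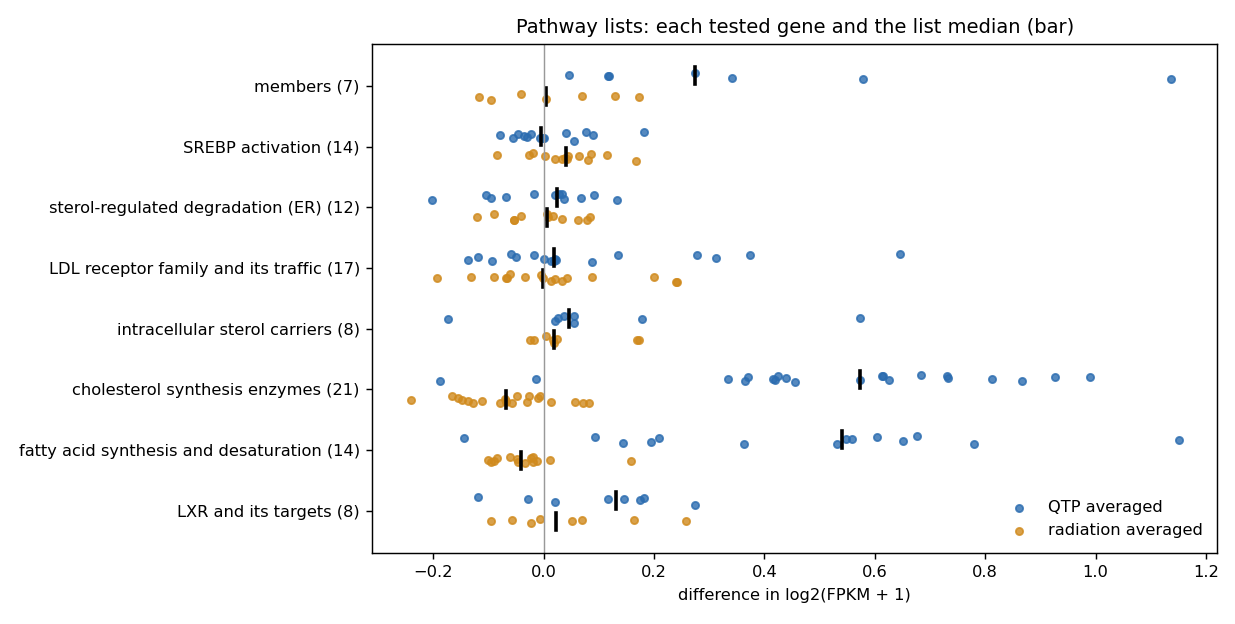
Difference on the log2(FPKM + 1) scale of each tested gene of the members and of 7 pathway lists, with QTP averaged (blue) and radiation averaged (orange); a black bar marks the median, and the number after each name is how many genes were tested. With QTP the medians are 0.57 for cholesterol synthesis and 0.54 for fatty acid synthesis, and those of the other 5 lists lie between -0.00 and 0.13.

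Radiation averaged called 0 genes in any of these lists. The median was -0.07 for cholesterol synthesis and -0.04 for fatty acid synthesis. Library Rx 2 was the highest of the 12 for 17 of the 21 cholesterol enzymes, 9 of the 14 fatty acid genes and 4 of the 7 members (SREBF1, SREBF2, SCAP and INSIG1). Differences without Rx 2 are given above for SREBF1, SREBF2 and INSIG1, and that of SCAP in Rx against Con was 0.05 with Rx 2 and 0.025 without it.

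Of 12 mesothelial markers, 4 averaged at least 1 FPKM: MSLN at 40.1, CALB2 at 20.2, KRT8 at 476 and KRT18 at 549. WT1 averaged 0.955 FPKM and PDPN was listed at 0. The summed level of the 12 markers was 1025 to 1299 FPKM (Con), 1025 to 1419 (IR), 937 to 1244 (Rx) and 687 to 1031 (Combo), nearly all of it from KRT8 and KRT18. All 4 tested markers were lower in Combo than in Con, 3 of them at an unadjusted p under 0.05 (median -0.50), against 1003 of all 13038 genes. All 4 were also lower with QTP averaged, 2 of them at that p (median -0.29) against 804 of all genes, and 0 of the 4 were called. Their part in the STARD4 result was not tested. Of 12 markers of other cells (immune, endothelial, fibroblast), 10 had a mean below 0.1 FPKM, with CD3E and LYZ listed at 0, and the other 2 were LUM at 4.98 and COL1A1 at 2.49. Their summed level was 5.57 to 7.63 FPKM (Con), 7.37 to 8.50 (IR), 6.44 to 8.39 (Rx) and 7.32 to 10.4 (Combo).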

How the data were processed

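The deposited table held FPKM for 58735 genes in 12 libraries, with hg38 coordinates and each gene's length (bases), by which the authors had divided; the coordinates of all 7 members equal those of GENCODE release 29; the build is hg38, per the submitters' processing notes, with aligner, counter and strand use not given in the sources used here. Per the labels' protocols, total RNA was prepared with the NEBNext Ultra RNA kit. FPKM times gene length was divided by a unit fitted in each library, with the smallest step taken as a single read. The quotient was whole in 100% of nonzero values (tolerance 0.01 of a read), and these reads gave the depth. Intervals are for a difference between group means, with an SE estimated from the spread between libraries. Replicates differed by a chi-square of 7.09 to 39.9 per degree of freedom, so none was a copy of another that differed by read sampling alone. This does not tell whether replicates were grown apart. In all, 0 value columns were left without a sample.

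Groups and replicate numbers came from the titles. Values were log2(FPKM + 1) of the 13038 genes averaging 1 FPKM or more, fitted with limma 3.58.1 in R 4.3.3 (a variance trend, group means, all 12 libraries sharing 1 spread), with two-sided tests and Benjamini-Hochberg adjustment over all genes (threshold 0.05). The fit was tested on simulated data. Same-numbered libraries of Con and IR (correlations 0.16 to 0.35) and of Con and Rx (0.19 to 0.28) deviated together by the rule that every correlation be over 0.1, and the other group pairs did not.

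The members and lists were chosen with earlier results of these data known. Named genes are the 7 members, the 3 most correlated protein-coding genes of each, genes overlapping a member, and of each list the called genes or up to 3 with the smallest p with QTP averaged; DHCR7, SC5D, FADS1 and LPIN1 are the called ones. Some genes that this rule also takes are not reported here. Alternatives were a pseudocount of 0.1, a filter at a mean of 5 FPKM or none, other scalings, no variance trend, the replicate number as a block, leaving out libraries, and limma voom on the recovered reads, which was added after seeing the data. Promoter windows and their motifs came from RefSeq, where all 7 members were matched by symbol.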

Additional observations from a re-analysis of the deposited data

How the results depend on the processing

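With QTP averaged, all 7 members kept their direction under every alternative in which the gene was tested. STARD4 was lost as a call with no filter (0.58, adjusted p of 0.0960), scaled to TPM (0.59, 0.146), scaled by the median of ratios (0.58, 0.0523), with no variance trend (0.58, 0.0654) and without IR 3 and Combo 3 (0.51, 0.259), so that 0 members were called in these 5. It was kept with a pseudocount of 0.1 (0.0495), a mean of at least 5 FPKM (0.0258), quantile normalization (0.0457), the replicate block (0.0487) and voom (0.0125). Leaving out each library gave 0 to 1 members and 0 to 18 genes. The genes called were 12, and 6 with no filter, 24 at a mean of at least 5 FPKM, 23 with quantile normalization, 34 with voom, and 0 with TPM, median of ratios, no trend, or without IR 3 and Combo 3. With no filter the count of 0 became 5 for Combo against Con, 6 for Combo against IR, 4 for Combo against Rx, 5 for IR against Con, 1 for Rx against Con, 6 for the interaction and 5 with radiation averaged. With the replicate block they became 90 genes and 1 member (STARD4) in Combo against Con and 3 genes with radiation averaged, and no other call of a member changed. Leaving out each library gave 0 to 956 genes and 0 to 1 members in Combo against IR (the highest without IR 1), 0 to 3 genes in IR against Con, 0 to 3 in the interaction and 0 to 1 with radiation averaged. The cause was not tested.

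Differences that changed sign were small, and no such row passed (lowest adjusted p of 0.607). Without IR 3 and Combo 3 these were INSIG2 (-0.083) and SCAP (-0.0013) in Combo against IR, INSIG1 (-0.017) and INSIG2 (-0.053) in Combo against Rx, INSIG1 in IR against Con (0.013), INSIG1 (-0.029) and SREBF1 (-0.0047) in the interaction, and INSIG1 (-0.0022) and SREBF2 (0.0025) with radiation averaged. Scaled to TPM they were SREBF1 for Combo against Rx (0.0037), STARD4 for IR against Con (-0.062), SCAP for Rx against Con (-0.034), SCAP for the interaction (0.17) and INSIG1 with radiation averaged (-0.0046). The SCAP interaction was 0.013 with the median of ratios, 0.050 with quantile normalization and 0.014 with voom. MYLIP was at -0.0069 with quantile normalization in Combo against IR, and at -0.0056 with a pseudocount of 0.1 and -0.039 with quantile normalization in Combo against Rx. Over fits without 1 library the ranges were, in Combo against IR, -0.17 to 0.16 for INSIG2, -0.0098 to 0.15 for MYLIP and -0.0088 to 0.070 for SCAP. In Combo against Rx they were -0.20 to 0.60 for INSIG1, -0.053 to 0.20 for INSIG2, -0.056 to 0.11 for MYLIP, -0.23 to 0.0088 for SREBF1 and -0.072 to 0.21 for SREBF2. In IR against Con they were -0.37 to 0.11 for INSIG1 and -0.053 to 0.10 for STARD4. In the interaction they were -0.077 to 0.72 for INSIG1, -0.061 to 0.018 for SCAP and -0.12 to 0.12 for SREBF1, and with radiation averaged -0.16 to 0.24 for INSIG1 and -0.11 to 0.032 for SREBF2. A planned count test with edgeR was not run, because the deposited unit is FPKM. MYLIP, with 52 to 109 reads per library, is the member whose precision depth limits most.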
